A study of Mus musculus with 7 samples.

Results

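The genes described here are 10 genes of the epithelial-mesenchymal transition (EMT), the programme by which cells of an epithelial sheet loosen their contacts and take on migratory properties. Cdh1 and Epcam stood for the epithelial state, and Cdh2, Vim, Fn1, Snai1, Snai2, Zeb1, Zeb2 and Twist1 for the mesenchymal state. Each gene was represented by the merged H3K27ac peaks that overlapped its gene body or the 10 kb on either side of it (mm10, GENCODE M21). This rule gave 48 of the 66841 merged peaks, in 9 of the 10 genes. The windows used no measured change, but the genes were chosen with earlier results of these data known. The shares called below are therefore those of a set not chosen blind to the data. By GENCODE's exons of the same genes, 15 of the 48 peaks overlapped coding sequence, 3 a non-coding part of an exon and 20 introns only, and 10 lay outside the gene body. Snai2 had no merged peak in its window, and the nearest lay 29.6 kb from the gene.

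Epithelial cells, and mouse embryonic stem cells too, hold together through E-cadherin, the product of Cdh1. In EMT, transcriptional repressors of the Snail and ZEB families and the bHLH factor Twist1 repress Cdh1, and cells come to express N-cadherin (Cdh2), vimentin (Vim) and fibronectin (Fn1). Newborn neurons leave the neuroepithelium by a process that resembles EMT, and Zeb1 and Zeb2 are also regulators of neural development. H3K27ac, an acetylation of histone H3, is found at active promoters and enhancers, so that its level reports on regulatory elements and not on RNA or protein.

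H3K27ac ChIP-seq was performed in A2lox-NeuroD1 cells, mouse embryonic stem cells of the A2Lox line (the name in the labels) that carry a NeuroD1 transgene switched on by doxycycline. NeuroD1 is a proneural bHLH transcription factor. Cells of the 0 h group had no doxycycline, and those of the 12 h and 48 h groups had received 500 ng per ml of it for 12 h or 48 h. Each time point had 2 libraries, R1 and R2, 6 in all, and nothing in the labels tells whether these came from separate cultures, so that p-values measure the spread between libraries, which may be technical. All groups carry the transgene, and no group of cells without it that received doxycycline was analysed here, so that NeuroD1, doxycycline and time in culture cannot be told apart.

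Reads in merged peaks ranged from 6283103 to 8112895 per library. Values are scaled counts, that is, reads brought to the mean depth of the 6 libraries by their total in merged peaks. The 48 h libraries differed from each other with base composition: over 66783 peaks, the log2 difference of R1 from R2 had a Pearson r of 0.558 with the GC content of the peak, and the change from 0 h to 12 h had an r of -0.532 (a description across peaks, which share their libraries and are not independent replicates). Beside the tests below, an offset on GC content was therefore used as an alternative. All 8 stem cell markers examined had peaks, and their summed scaled count ranged from 25260 to 25430 at 0 h and from 17030 to 21730 at 48 h. At 12 h it was higher, from 28450 to 28520. Esrrb and Dppa5a were lost at 48 h (log2 fold change -0.53 and -0.57). The others, among them Pou5f1 (-0.18), Nanog (-0.30) and Sox2 (-0.27), were not called at 48 h relative to 0 h, and Pou5f1 was gained at 12 h (0.30). With the GC offset, 6 of the 8 were lost at 48 h relative to 0 h, against 1338 of all 16180 genes with a peak. Pou5f1 and Klf4 were not among the 6. From 12 h to 48 h, 6 of the 8 were lost without the offset, Pou5f1 and Sox2 among them, against 7.74% of all genes. Feeder fibroblasts, on which the line had once been grown, are themselves mesenchymal. Of their 9 markers, 5 had no peak (Thy1, Postn, Dcn, Prrx1 and Twist2). The summed scaled count ranged from 390.0 to 390.6 at 0 h and from 353.1 to 406.7 at 48 h. Its members moved apart: Col1a2 was gained at 12 h (1.12) and 48 h (1.38), and Col3a1 at 12 h (1.62). Col1a1, the largest of them, was lost at 12 h (-0.44) and not called at 48 h (-0.505), and Lum was not called. Of 7 neuronal markers 6 had peaks, Map2, Nhlh1 and Tubb3 gained H3K27ac at 48 h, Stmn2, Elavl3 and Ina were not called (Elavl3, at -0.58, was lost at 12 h), and the sum ranged from 1573 to 1694 at 0 h and from 2132 to 2549 at 48 h. The part of these cell populations in the values below was not tested, and a change of the mark in all cells cannot be told apart from a change in the share of cells that carry it.

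The test of time points was the quasi-likelihood test of edgeR, fitted to all merged peaks with all 6 libraries in 1 model, and adjusted by Benjamini and Hochberg's method. A peak was called gained or lost where its adjusted p was under 0.05. The same model was fitted to gene sums, which are the counts summed over the peaks of each gene's window, for 16180 genes with a peak. Fold changes are on the log2 scale. Their standard error (SE) is the absolute log2 fold change divided by the square root of the test's F statistic.

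At 48 h, 15 of their 48 peaks had gained and 4 had lost H3K27ac relative to 0 h, while 8.56% of all merged peaks were gained and 5.45% were lost. All 15 gained peaks lay in mesenchymal genes, 9 of them in Zeb2. At 12 h, 3 peaks were gained and 1 was lost, against 9.93% and 6.03% of all peaks. From 12 h to 48 h, 12 were gained and 2 lost, against 10.7% and 8.43% of all peaks. Both 48 h libraries lay above both 0 h libraries at 22 of the 48 peaks (23.9% of all peaks did so) and below them at 10 (28.7% of all peaks). The 48 h and 12 h comparisons with 0 h share the 0 h libraries.

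The number of calls depended on single libraries. Of the 19 peaks called at 48 h relative to 0 h, 8 were called without 0 h R1 and 1, peak 2 of Zeb2, without 0 h R2. Without either 12 h library 15 were called, the peaks that dropped out being Epcam, peak 4 of Cdh1, peak 2 of Vim and peak 4 of Zeb2. Of the 4 peaks called at 12 h, 1 was called without 0 h R1 or without 12 h R1 and 0 without 0 h R2 or 12 h R2. From 12 h to 48 h, 4 and 3 of the 14 were called without 12 h R1 and R2. The cause was not tested.

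Among the 11 epithelial peaks, 2 were lost at 48 h and 0 were gained, with a median log2 fold change of -0.43. At an unadjusted p under 0.05, 5 were lower and 0 higher, and DESeq2 called 0 of the 11. For counts at an unadjusted p, here and below, and for those by DESeq2, no share of all merged peaks is given. Whether they exceed the general rate therefore cannot be read from them. Among the 37 mesenchymal peaks, 15 were gained and 2 lost, with a median of 0.85. By gene, the medians were 1.63 in Zeb2 (11 peaks), 1.14 in Vim (2), 1.11 in Twist1 (1) and 0.95 in Zeb1 (3). They were 0.47 in Snai1 (4) and 0.19 in both Cdh2 (4) and Fn1 (12). The 37 peaks are not independent, since those of 1 gene share their locus. The median over all merged peaks was -0.04. A minimum of 10 reads in 2 or more libraries was reached by 46 of the 48 peaks.

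**Figure D1:**
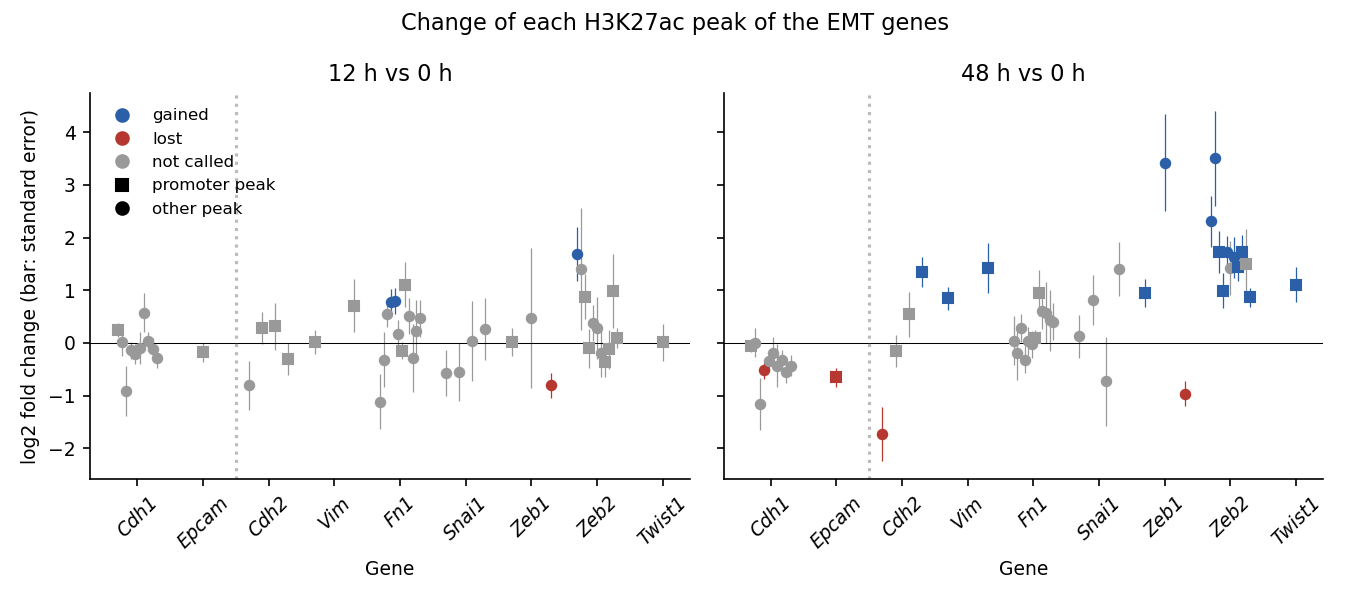
Log2 fold change of each merged H3K27ac peak of the 9 EMT genes with a peak, relative to 0 h, at 12 h (left) and 48 h (right). Points are peaks in order of position, squares are promoter peaks, bars are standard errors, and colours mark calls by edgeR; the fitted values of peak 2 of Zeb1 and peak 2 of Zeb2 rest on 2 reads at 0 h. At 48 h, 15 peaks were gained, all to the right of the dotted line that separates the epithelial from the mesenchymal genes.

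Epcam, which encodes an epithelial cell adhesion molecule, lost H3K27ac at its single peak, which covers its start (chr17:87635074-87637408). Scaled counts were 314.0 (R1) and 331.1 (R2) (0 h), 301.3 and 268.6 (12 h), and 211.0 and 198.6 (48 h). Both 48 h libraries lay below all other libraries, and the R1 and R2 values were close to each other, with 1.06 times as many in R1. The log2 fold change was -0.66 at 48 h (SE 0.18, adjusted p = 0.0175) and -0.18 at 12 h (SE 0.18, adjusted p = 0.509). With the GC offset the change at 48 h was -0.49 and was called (adjusted p = 0.0146), and with DESeq2 the adjusted p was 0.0852. The sequence around the start is shown because it holds the hexamer CACCTG, the E-box that Snail and ZEB proteins recognise, and in these 300 bases neither CAGCTG nor CAGATG, the E-boxes tied to NeuroD1 dimers. It covers chr17:87635729-87636028 (RefSeq, GRCm38.p6, + strand), from 250 bases before the start to 50 after it. The central 500 bp of the peak, which lie mostly beyond these bases, do hold 2 CAGCTG sites beside 1 CACCTG. In the window shown, the 2 CACCTG sites are in capitals, the second of them read as CAGGTG on this strand.
Epcam promoter: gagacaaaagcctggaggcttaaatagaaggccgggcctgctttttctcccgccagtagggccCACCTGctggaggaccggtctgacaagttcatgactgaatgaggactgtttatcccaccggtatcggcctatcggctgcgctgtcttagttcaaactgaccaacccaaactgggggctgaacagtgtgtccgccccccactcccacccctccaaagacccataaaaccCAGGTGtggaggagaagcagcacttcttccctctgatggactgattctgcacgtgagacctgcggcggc
Of the 32851 RefSeq promoters of this length, 20.2% hold CACCTG on either strand, 16.3% CAGCTG and 17.2% CAGATG.

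Cdh1, which encodes E-cadherin, had 10 peaks over and behind its gene body, of which 0 were called at 12 h and 1 at 48 h relative to 0 h. Its promoter peak (chr8:106602417-106624250) was 21834 bp wide and reached into the gene body; 12 of the 66841 merged peaks were wider, and 9 held more reads. It accounted for 48.3% of all reads in the 48 peaks at 0 h. Its scaled counts were 4836 and 4676 (0 h), 5499 and 5747 (12 h), and 3994 and 5176 (48 h). Both 12 h libraries were above all others, and the 48 h libraries lay on either side of the 0 h libraries. The log2 fold change of this peak was 0.24 at 12 h (SE 0.13, adjusted p = 0.196) and -0.05 at 48 h (SE 0.13, adjusted p = 0.839). An intronic peak further into the gene, peak 4 (chr8:106627315-106635137), had 867.2 and 939.3 (0 h), 807.4 and 828.8 (12 h), and 564.0 and 692.2 (48 h). It was lost at 48 h (log2 fold change -0.52, SE 0.16, adjusted p = 0.0259), and DESeq2 did not call it (adjusted p = 0.127). With the GC offset it was lost too (-0.53, adjusted p = 0.00116), and so were peak 9 (-0.58, adjusted p = 0.00499) and peak 10 (-0.48, adjusted p = 0.0355). The promoter peak was not called with the GC offset (-0.06, adjusted p = 0.772). Of the 10 Cdh1 peaks, 7 had both 48 h libraries below both 0 h libraries (28.7% of all merged peaks did so). Both lay above at 0 of them (23.9% of all merged peaks). At 48 h, 4 of the 10 had an unadjusted p under 0.05, all lower.

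Vim, which encodes the intermediate filament vimentin, gained H3K27ac at both of its peaks. The promoter peak (chr2:13572553-13575550) had scaled counts of 187.8 and 135.9 (0 h), 169.4 and 159.1 (12 h), and 346.4 and 239.0 (48 h). The 48 h libraries were higher than the other 4, and those of 12 h lay between the 0 h libraries. The log2 fold change at 48 h was 0.85 (SE 0.22, adjusted p = 0.0101; with DESeq2 adjusted p = 0.0132). Peak 2 (chr2:13575738-13576160), behind the promoter peak, was small, with 9.24 and 6.37 (0 h), 12.9 and 12.9 (12 h), and 18.9 and 23.2 (48 h), and was gained at 48 h (1.42, SE 0.47, adjusted p = 0.0420; with DESeq2 adjusted p = 0.216).

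Cdh2, which encodes N-cadherin, lies on chromosome 18 and had 4 peaks, of which 1 was gained and 1 lost at 48 h. The promoter peak, peak 4 (16806622 to 16809928), had 122.1 and 124.2 (0 h), 87.9 and 110.4 (12 h), and 448.6 and 184.0 (48 h). Each of the 48 h libraries exceeded the other 4, with R1 2.44 times R2. The log2 fold change was 1.35 at 48 h relative to 0 h (SE 0.28, adjusted p = 0.00181) and 1.66 relative to 12 h (SE 0.29, adjusted p = 0.000472). DESeq2 did not call the change from 0 h (adjusted p = 0.115). Peak 1, deep in the gene body (16665091 to 16665544), fell from 16.4 and 25.5 (0 h) to 3.33 and 8.60 (48 h) (log2 fold change -1.73, SE 0.52, adjusted p = 0.0263, not called without 48 h R1; DESeq2 adjusted p = 0.181).

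Fn1, which encodes the matrix protein fibronectin, had 12 peaks and showed a different course. Its promoter peak (chr1:71649630-71654818) had 710.1 and 711.1 (0 h), 694.8 and 589.7 (12 h), and 730.6 and 785.9 (48 h) (log2 fold change at 48 h 0.09, SE 0.16, adjusted p = 0.753). The called changes were in 2 adjoining peaks inside the gene. Peak 4 (chr1:71644783-71646204), which overlaps a coding exon, had 112.9 and 103.0 (0 h), 189.8 and 178.5 (12 h), and 59.96 and 110.9 (48 h). Peak 5 (chr1:71646273-71647364), in an intron, had 74.9 and 63.7, then 134.0 and 107.6, then 59.96 and 81.7. At both, the 12 h libraries lay above all others. Both were gained at 12 h (0.77, SE 0.25, adjusted p = 0.0347, and 0.80, SE 0.25, adjusted p = 0.0334) and lost from 12 h to 48 h (-1.09, adjusted p = 0.00454, and -0.76, adjusted p = 0.0361). With the GC offset the 12 h gains were not called (adjusted p = 0.0541 and 0.338), nor with DESeq2 (0.0525 and 0.0611). At 48 h, 0 of the 12 peaks were called relative to 0 h by edgeR or DESeq2, with 1 higher and 0 lower at an unadjusted p under 0.05.

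Zeb2, a zinc-finger repressor of epithelial genes that also acts in neural development, held 9 of the 15 gained peaks. All 11 of its peaks had both 48 h libraries above both 0 h libraries, where 23.9% of all merged peaks did so. The 9 (6 by DESeq2) came with a median log2 fold change of 1.63 over all 11. The promoter peak, peak 11 (chr2:45115099-45118660), had 414.6 and 320.5 (0 h), 397.8 and 386.4 (12 h), and 773.9 and 569.2 (48 h). Both 48 h libraries lay above all others, and 12 h and 0 h overlapped. Its log2 fold change at 48 h was 0.87 (SE 0.18, adjusted p = 0.00203; with the GC offset 0.86, adjusted p = 4.1e-06). A further peak over an internal start of the gene, peak 8 (chr2:45108221-45111650), had 250.4 and 186.8 (0 h), 154.4 and 185.8 (12 h), and 862.7 and 338.8 (48 h) (1.45, SE 0.27, adjusted p = 0.000693; DESeq2 adjusted p = 0.106). The start region of Zeb2 overlaps the antisense gene Zeb2os, and counts of ChIP reads do not tell to which gene the mark belongs.

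The largest gains of Zeb2 lay far inside the gene, about 115 kb from its annotated start, at 2 adjoining peaks that overlap coding exons and held few reads at 0 h. Peak 1 (chr2:45001661-45002255) had scaled counts of 7.18 and 4.25 (0 h), 13.9 and 23.0 (12 h), and 34.4 and 24.1 (48 h). The groups did not overlap, and the order was 0 h, 12 h, 48 h. Peak 1 was the single Zeb2 peak gained already at 12 h (log2 fold change 1.68, SE 0.51, adjusted p = 0.0273; with the GC offset 1.70, adjusted p = 0.0122; with DESeq2 adjusted p = 0.0989). At 48 h its change was 2.31 (SE 0.48, adjusted p = 0.00185). Peak 2 (chr2:45002323-45002650) held 0 and 2 reads (0 h), 3 and 3 (12 h), and 13 and 14 (48 h). The ratio of 48 h to 0 h was 12.5 with a 95% counting interval of 3.15 to 109 (exact, counting error only), and the change was called (adjusted p = 0.00991).

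The central 300 bases of both peaks are shown because they hold CAGCTG, a palindromic E-box tied to NeuroD1 dimers, while the window around the start does not. The peaks are given on the + strand of mm10 (chr2:45001809-45002108 and chr2:45002337-45002636) and the promoter on the - strand, 250 bases before to 50 after the RefSeq start (chr2:45117393-45117692, GRCm38.p6). Capitals mark CAGCTG, and neither CACCTG nor CAGATG was found in these 3 windows on either strand. In other windows the picture differs. The central 500 bp of peak 1 also hold CACCTG and CAGATG. The central 300 bases of the promoter peak (chr2:45116730-45117029), which lie outside the start window shown, hold 1 CACCTG and 1 CAGCTG. Compared by their central 300 bases, the promoter peak and the 2 inner peaks thus all hold CAGCTG.
Zeb2 peak 1: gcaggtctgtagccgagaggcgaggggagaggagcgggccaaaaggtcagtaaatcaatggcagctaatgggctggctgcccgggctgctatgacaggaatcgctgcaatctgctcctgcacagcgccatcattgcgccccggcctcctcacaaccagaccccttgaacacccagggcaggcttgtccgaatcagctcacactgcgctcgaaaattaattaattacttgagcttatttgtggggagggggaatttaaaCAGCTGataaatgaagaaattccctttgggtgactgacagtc
Zeb2 peak 2: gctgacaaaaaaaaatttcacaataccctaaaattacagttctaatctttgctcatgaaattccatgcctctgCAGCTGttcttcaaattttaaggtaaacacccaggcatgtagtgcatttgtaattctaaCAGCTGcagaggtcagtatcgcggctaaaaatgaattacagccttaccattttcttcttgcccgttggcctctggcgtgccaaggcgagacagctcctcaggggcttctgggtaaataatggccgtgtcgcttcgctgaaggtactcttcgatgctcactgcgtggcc
Zeb2 promoter: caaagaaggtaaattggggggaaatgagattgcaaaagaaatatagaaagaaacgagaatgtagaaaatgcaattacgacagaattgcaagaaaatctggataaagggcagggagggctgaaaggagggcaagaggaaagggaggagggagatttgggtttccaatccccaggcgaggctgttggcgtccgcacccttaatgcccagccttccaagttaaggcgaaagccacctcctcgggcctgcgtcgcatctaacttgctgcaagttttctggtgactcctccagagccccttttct
A match of 6 letters is no evidence of binding.

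**Figure D2:**
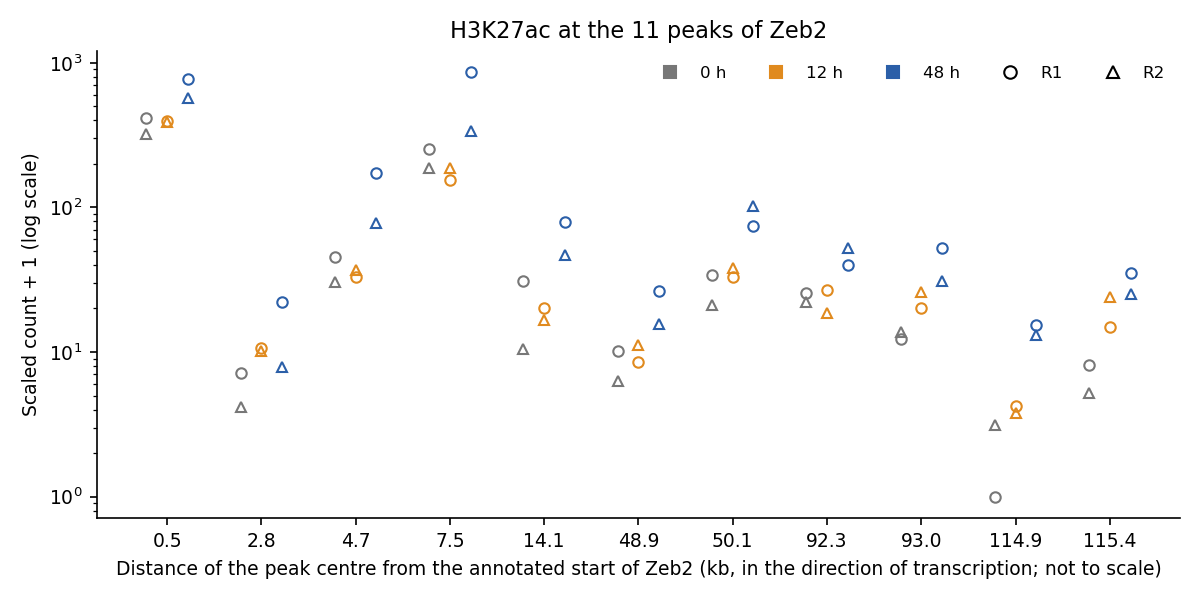
Scaled counts, with 1 added, at the 11 merged H3K27ac peaks of Zeb2 in the 6 libraries (log axis), ordered by the distance of the peak centre from the annotated start. Colours mark time points, and circles and triangles mark R1 and R2. At all 11 peaks both 48 h libraries lie above both 0 h libraries, against 23.9% of all merged peaks.

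Twist1, a bHLH regulator of mesenchymal genes, had a single peak at its start (chr12:33956815-33958462). Scaled counts were 52.3 and 40.3 (0 h), 51.5 and 42.3 (12 h), and 143.2 and 60.2 (48 h). Both 48 h libraries lay above all others, but R2 was close to them and R1 was 2.38 times R2. The peak was called gained at 48 h (1.11, SE 0.33, adjusted p = 0.0237, not called without 48 h R1; with the GC offset 1.14, adjusted p = 0.000211; with DESeq2 adjusted p = 0.0565).

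Snai1, which encodes Snail, had 4 peaks, all downstream of the gene body and none over its start. They held between 2.58 and 34.4 scaled counts per library. By edgeR and by DESeq2, 0 of the 4 were called in each comparison, and 1 was higher at 48 h than at 0 h at an unadjusted p under 0.05. This was peak 4 (chr2:167552643-167553041), with 10.3 and 5.31 (0 h), 9.65 and 9.20 (12 h), and 28.9 and 13.8 (48 h) (1.40, SE 0.52, adjusted p = 0.0728; with the GC offset 1.48, adjusted p = 0.0209). Snai2, which encodes Slug, had no peak and so no value.

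Zeb1, the second ZEB repressor, lies on chromosome 18 and had 3 peaks that did not move together. The promoter peak (5591042 to 5593664, overlapping the gene Gm10125) had 134.4 and 155.0 (0 h), 170.5 and 123.3 (12 h), and 379.7 and 181.4 (48 h), so that both 48 h libraries were above all others and R1 was 2.09 times R2. It was gained at 48 h (0.95, SE 0.26, adjusted p = 0.0164, not called without 48 h R1; with DESeq2 adjusted p = 0.246). Peak 2, in an intron (5712563 to 5712840), held 1 and 1 reads (0 h), 2 and 1 (12 h), and 16 and 9 (48 h), a ratio of 48 h to 0 h of 11.6 (95% counting interval 2.90 to 101, exact; adjusted p = 0.0137, not called without 48 h R1). Peak 3 (5751018 to 5752537), with a GC content of 62.6%, fell from 132.4 and 202.7 (0 h) to 90.1 and 101.2 (12 h) and 85.5 and 86.0 (48 h). It was lost at 12 h (-0.81, SE 0.24, adjusted p = 0.0240) and at 48 h (-0.96, SE 0.24, adjusted p = 0.00840). With the GC offset the loss at 48 h was called (-0.72, adjusted p = 0.0054) and that at 12 h was not (adjusted p = 0.203).

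Among the highest promoter peak of each gene, the libraries at 48 h differed most at the 3 with the highest GC content. R1 was 2.44, 2.38 and 2.09 times R2 at the promoter peaks of Cdh2, Twist1 and Zeb1, with GC contents of 64.2%, 69.0% and 65.0%, and 1.45, 1.36, 1.06, 0.93 and 0.772 times R2 at those of Vim, Zeb2, Epcam, Fn1 and Cdh1, with GC contents of 53.8%, 46.3%, 57.7%, 47.6% and 48.8%. Other peaks near starts of Zeb2 differed as widely at lower GC content, such as peak 8 (862.7 and 338.8, GC content 55.7%) and peak 10 (21.1 and 6.88, 43.3%). The part of GC content in this difference was not tested. With the GC offset, the 48 h gains of the promoter peaks of Cdh2, Zeb1 (1.08), Twist1, Vim (0.89) and Zeb2 were still called, and so was the loss at Epcam.

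At 0 h, before induction, the promoter peaks held different levels per length. The Cdh1 promoter peak had 217.8 scaled counts per kb, those of Epcam and Fn1 138.2 and 136.9, that of Zeb2 103.2, those of Zeb1 and Vim 55.2 and 54.0, and those of Cdh2 and Twist1 37.2 and 28.1 (means of 2 libraries). The libraries overlapped for Epcam and Fn1 and for Zeb1 and Vim, and not for the other neighbours in this order. These levels per kb are the mean over the peak and depend on how wide the peak was called.

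Summed per gene, 0 of the 9 genes were called at 12 h relative to 0 h by edgeR or DESeq2, and 0 had an unadjusted p under 0.05, where 7.13% of all 16180 genes were gained and 30.2% lost. The median gene sum of all genes moved by -0.29 from 0 h to 12 h and by 0.32 from 12 h to 48 h (0.03 from 0 h to 48 h), and with TMM factors or the GC offset the shift from 0 h to 12 h was -0.23 or -0.16. At 48 h relative to 0 h, 2 were gained and 1 lost, against 6.45% and 5.37% of all genes. Zeb2 rose from 830.2 and 615.6 (723 ± 152, SD, n = 2) to 2146 and 1271 (1709 ± 619), a log2 fold change of 1.24 (SE 0.21, adjusted p = 0.00403). Vim rose from 169.6 ± 38.8 to 313.8 ± 72.9 (0.88, SE 0.21, adjusted p = 0.0212). Epcam fell from 322.6 ± 12.1 to 204.8 ± 8.71 (-0.66, SE 0.15, adjusted p = 0.0163). Cdh2 (0.90, adjusted p = 0.0516), Twist1 (1.11, adjusted p = 0.0918), Snai1 (0.56), Zeb1 (0.27), Fn1 (0.09) and Cdh1 (-0.16) did not pass the threshold.

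From 12 h to 48 h, 4 gene sums were gained (Cdh2 1.05, Vim 0.82, Zeb2 1.22 and Twist1 1.10) and 2 were lost (Epcam -0.48 and Cdh1 -0.30, adjusted p = 0.0474 for Cdh1), against 38.2% and 7.74% of all genes. The gained share of 4 in 9 is near that of all genes. Leaving out 48 h R1 reduced the 48 h to 0 h change of Cdh2 from 0.90 to 0.34, of Twist1 from 1.11 to 0.37 and of Zeb2 from 1.24 to 0.81, and leaving out 0 h R2 reduced the number of genes called at 48 h from 3 to 0. Without 0 h R1, 12 h R1 or 12 h R2, Zeb2 alone was called. Of the 6 gene sums called from 12 h to 48 h, 0 were called without either 12 h library and 3 without either 0 h library.

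**Figure D3:**
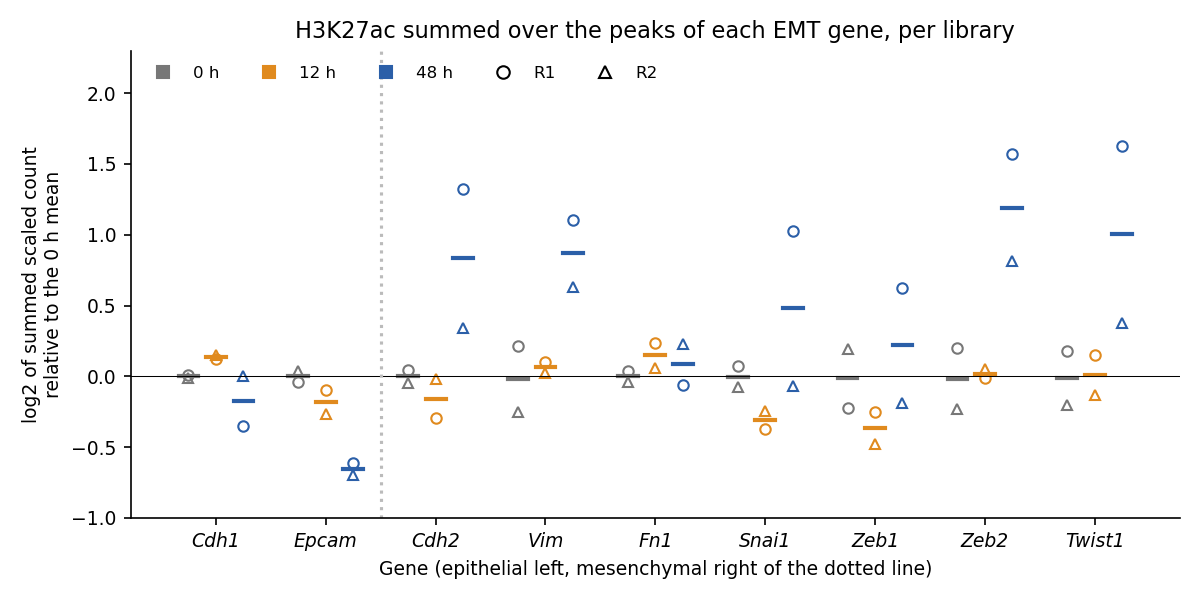
Log2 of the summed scaled count of each EMT gene relative to its 0 h mean, for the 6 libraries. Circles and triangles mark R1 and R2, short lines mark the mean of both, and colours mark time points; the 48 h values of Epcam lie below those of the other 4 libraries and those of Cdh2, Vim, Zeb2 and Twist1 above them, while those of Cdh1, Fn1, Zeb1 and Snai1 fall on either side of 0 or close to it.

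The epithelial and the mesenchymal genes were also set against each other, as a description. Per library, the mean of log2(summed scaled count + 8) over Cdh1 and Epcam was compared with the mean over the 7 mesenchymal genes with a peak. Relative to the 0 h mean, the epithelial mean was -0.47 (R1) and -0.34 (R2) at 48 h, and the mesenchymal mean 0.99 and 0.30. Their difference was -0.09 and 0.09 (0 h), 0.06 and 0.04 (12 h), and -1.46 and -0.64 (48 h). The mean change of the difference was 0.05 at 12 h and -1.05 at 48 h (pooled SD within time points 0.34, n = 2). Both 48 h libraries lay below all others, and the 48 h libraries differed from each other by more than those of 0 h or 12 h did. With windows of 50 kb in place of 10 kb the change at 48 h was -0.58. No test was made of this score, and of its 9 genes Epcam, Vim and Zeb2 passed the test of gene sums at 48 h.

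**Figure D4:**
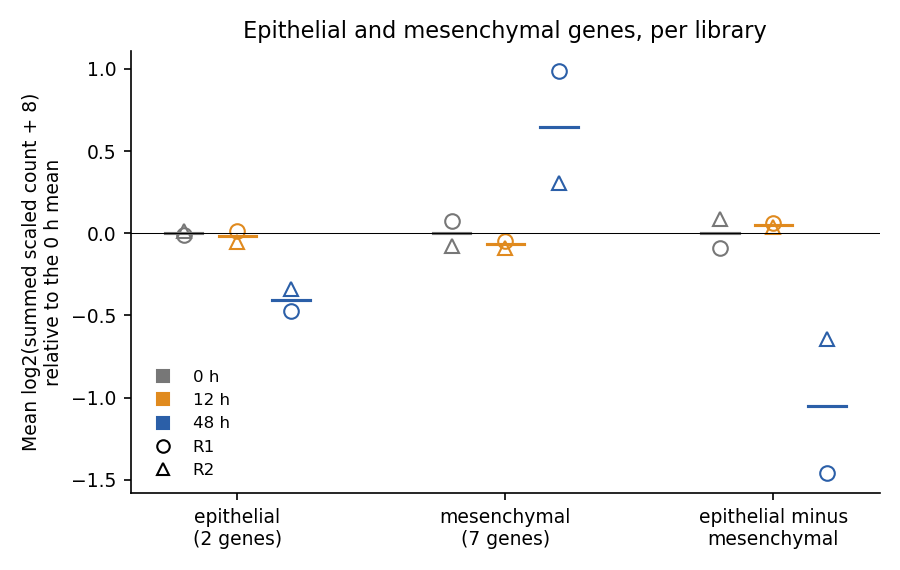
Mean log2(summed scaled count + 8) of the epithelial genes (Cdh1 and Epcam), of the 7 mesenchymal genes with a peak, and the difference, per library relative to the 0 h mean. Circles and triangles mark R1 and R2 and lines the means; the difference at 48 h is -1.46 in R1 and -0.64 in R2.

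Other genes of the pathway, 77 in all, were taken from 6 lists and tested as gene sums, for which the shares over all genes were 6.45% gained and 5.37% lost at 48 h, with a median of 0.03. Of 19 adhesion and epithelial genes with a peak, 4 were lost and 1 gained at 48 h relative to 0 h, with a median log2 fold change of -0.24. The lost ones were Cldn3 (-0.81, adjusted p = 0.00794), Cldn4 (-0.53) and Cldn6 (-0.52), which encode tight junction claudins, and Jup (-0.48), which encodes plakoglobin; the gained one was Cdh3 (0.45), which encodes P-cadherin. Of 10 epithelial regulators 3 were lost and 0 gained (median -0.38): Elf3 (-0.97, adjusted p = 0.00148), Grhl3 (-0.63) and Esrp1 (-0.50), the last an epithelial splicing factor. Of 15 mesenchymal matrix and cytoskeleton genes 1 was gained, the collagen gene Col1a2 (1.38, adjusted p = 0.0111), and 2 were lost, among them the integrin gene Itga5 (-0.55), with a median of -0.02 (0.06 with TMM factors). Col1a2 is also among the feeder fibroblast markers. Of 9 other mesenchymal regulators, Tcf4 was gained (0.54) and Scrt2 lost (-0.75), with a median of 0.03, and of 12 genes of TGF-beta signalling, Skil was gained (0.46) and 0 were lost, with a median of 0.22. Krt19, Acta2, Cd44, Tnc, Twist2, Prrx1 and Sox9 had no peak. In the count that follows, Mir200a, Mir200b and Mir429 share the same 2 peaks and stand as 3 gene sums with 1 value. With the 5 miR-200 genes, 17 gene sums of the 6 lists were called at 48 h, 6 without 0 h R1 and 0 without 0 h R2, against 36 and 34 without 48 h R1 and R2.

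**Figure D5:**
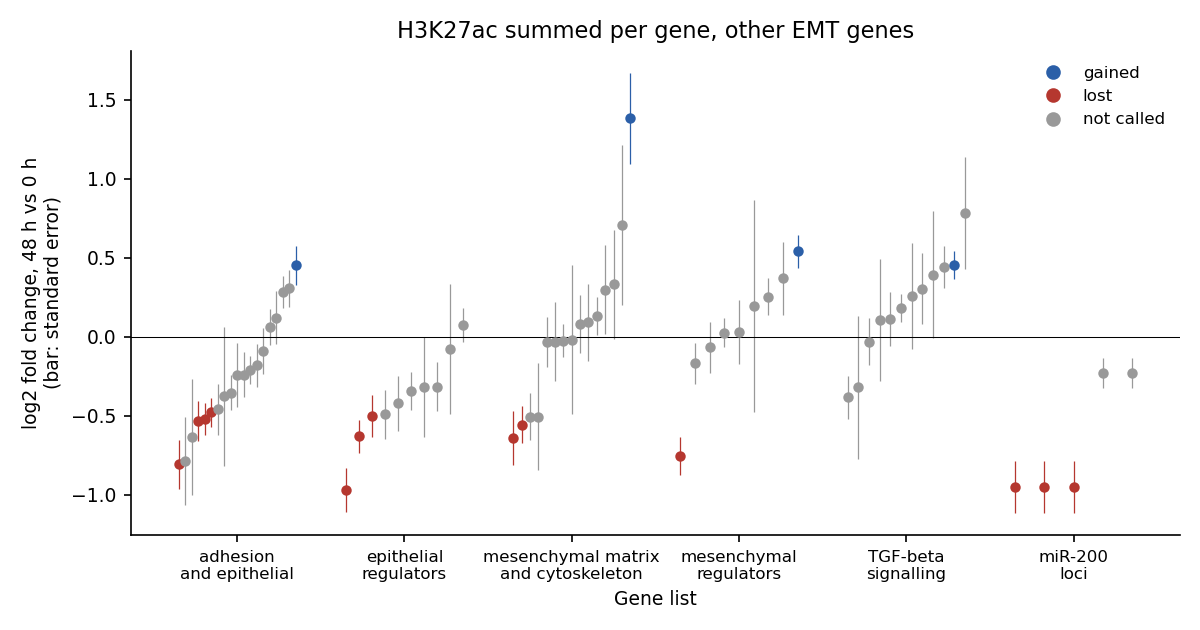
Log2 fold change at 48 h relative to 0 h of the gene sums of 6 lists of EMT genes, with standard errors. Blue points are gained, red points lost and grey points not called; the 3 points at -0.95 in the miR-200 list are Mir200a, Mir200b and Mir429, which share the same 2 peaks, and the 2 points at -0.23 are Mir200c and Mir141, which share 3.

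The miR-200 family is known for repressing Zeb1 and Zeb2 through sites in their transcripts, and ZEB proteins repress the miR-200 genes in turn. It is encoded at 2 loci, and the mature sequences are shown because their seeds (bases 2 to 8, in capitals) divide the family into groups that do not follow the loci. Mature sequences are from RefSeq (GRCm38.p6), with miR-200a, miR-200b and miR-429 on chromosome 4 and miR-200c and miR-141 on chromosome 6.
mmu-miR-200b-3p: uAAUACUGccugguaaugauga
mmu-miR-429-3p: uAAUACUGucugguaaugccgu
mmu-miR-200c-3p: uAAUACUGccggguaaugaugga
mmu-miR-200a-3p: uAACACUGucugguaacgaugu
mmu-miR-141-3p: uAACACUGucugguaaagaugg
The first 3 share the seed AAUACUG and the last 2 the seed AACACUG.

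H3K27ac fell at a peak of each miR-200 locus. At the locus on chromosome 4, the gene sum was 355.1 and 376.8 (0 h), 262.7 and 317.4 (12 h), and 168.8 and 208.9 (48 h) (log2 fold change -0.95 at 48 h, SE 0.17, adjusted p = 0.00439). The peak nearest to the hairpins (chr4:156058435-156060646), 2685 bp from that of miR-200b and close to the start of Ttll10, fell from 231.9 and 207.0 to 68.8 and 107.5 (-1.30, SE 0.23, adjusted p = 0.000349). At the locus on chromosome 6 the gene sum did not pass the threshold (-0.23, adjusted p = 0.162). This sum includes a peak at the start of Emg1 with 725 ± 16.7 at 0 h and 698 ± 12.5 at 48 h. The peak that covers the hairpins of miR-200c and miR-141 (chr6:124717397-124719516) fell from 240.1 and 253.7 (0 h) to 185.5 and 161.9 (12 h) and 132.1 and 134.1 (48 h) (-0.89, SE 0.20, adjusted p = 0.00380), and its groups did not overlap. Both peaks were also called by DESeq2 (adjusted p = 0.000261 and 0.0136) and with the GC offset, and that on chromosome 6 was not called without 0 h R2.

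E-boxes were counted within the central 500 bp of each peak, on both strands. CACCTG was found in 16 of 48 EMT gene peaks (33.3%) and in 37.0% of all merged peaks, CAGCTG in 11 (22.9%) and in 25.2%, and CAGATG in 18 (37.5%) and in 29.3%. Median log2 fold changes at 48 h were 1.40 for the 11 EMT gene peaks with CAGCTG and 0.13 for those without, while over all merged peaks the median with CAGCTG was close to 0 and without it -0.05. Of the 15 gained peaks, 5 held CAGCTG, 5 CAGATG and 3 CACCTG. For CACCTG the medians were 0.16 with and 0.52 without it, and over all merged peaks -0.16 and 0.02. For CAGATG they were 0.47 with and 0.28 without it, and over all merged peaks 0.03 and -0.07. Peak 3 of Zeb1, with 5 CACCTG sites, was among the lost peaks. Peaks of 1 gene share their locus and are not independent, and 5 of the 11 peaks with CAGCTG lay in Zeb2.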

How the data were processed

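ChIP-seq for H3K27ac, from A2lox-NeuroD1 cells (A2Lox in the labels) at 0 h, 12 h and 48 h of induction, was analysed, with 2 libraries per time point and groups taken from the sample labels. The Input library was not used here. The authors checked reads with FastQC, aligned them with Bowtie2 in local mode to mm10, used SAMtools 0.1.19, ran MACS2 with Input as the control, merged the resulting peaks over samples and deposited raw read counts per merged peak, made with QuasR. Values of small peaks are imprecise, and intervals cover counting error only.

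Gene windows and promoters (2 kb either side of a start of a protein-coding transcript) came from GENCODE M21. Time points were compared with edgeR 4.0.16 (glmQLFit and glmQLFTest) in R 4.3.3 on the counts of all peaks, and of gene sums, with library totals as offset, time point as the factor, no filter, Benjamini-Hochberg adjustment and a threshold of 0.05. Residual degrees of freedom were 3, and the biological coefficient of variation was 14.9% for peaks and 10.5% for gene sums. Scores used a pseudocount of 8. Alternatives were TMM factors, DESeq2 1.42.0, a filter (10 or more counts in 2 libraries), the replicate number as a block, the 4 libraries compared alone, a lowess offset on GC content (span 0.3), each library left out, windows of 0 kb or 50 kb, promoter peaks alone and a pseudocount of 1. The tests were tried on simulated data with 200 features changed 2-fold at 48 h. Only features above a minimum mean count were changed, the same spread was used for all features and libraries, and no GC trend was put in. The counts that follow thus do not cover peaks with few reads or the unequal libraries at 48 h. Of the 200, edgeR recovered 66 as peaks and 149 as gene sums, with 7 and 8 false calls, and DESeq2 recovered 45 and 134. A peak that was not called may therefore still have changed. Tables were made with Python 3.11.15, numpy 2.4.6, pandas 2.3.3, scipy 1.17.1, pysam 0.24.0 and matplotlib 3.10.9.

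For each of the 10 genes the text names its promoter peak (the one with the highest mean count near a start), its called peak with the largest change and its gene sum, and from each other list up to 4 genes called at 48 h, of which 1 is not reported here. Other peaks of Zeb1, Zeb2, Fn1, Snai1, Cdh3 and the miR-200 loci were picked once their values had been seen. The genes, lists and alternatives were chosen with earlier results of these data known. RefSeq promoter sequences were matched for Epcam, Vim, Snai1, Zeb2 and Twist1; Cdh1, Cdh2, Fn1, Snai2 and Zeb1 had no entry in the table used.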

Additional observations from a re-analysis of the deposited data

Results flagged for a closer look

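The time points differed by a test of the 48 h libraries against the 12 h libraries, both measured against the same 0 h libraries (adjusted p under 0.05 by edgeR). Gene sums that rose between 12 h and 48 h were Cdh2 (1.05, from -0.15 at 12 h to 0.90 at 48 h relative to 0 h), Vim (0.82), Zeb2 (1.22) and Twist1 (1.10), and those that fell were Epcam (-0.48) and Cdh1 (-0.30, from 0.14 to -0.16). Among the peaks, the promoter peaks of Cdh2 (1.66), Vim (0.83), Zeb1 (0.93), Zeb2 (0.77) and Twist1 (1.10) rose, and so did peak 2 of Zeb1 (2.96) and peak 2 of Zeb2 (2.10), whose fitted values rest on few reads. Peak 5 of Fn1 moved the other way (-0.76), from 0.80 at 12 h to 0.04 at 48 h, and with the GC offset this difference was not called (adjusted p = 0.141). The adjoining peak 4 fell by more (-1.09, from 0.77 to -0.32), and was called with the GC offset too (adjusted p = 0.000267). With 2 libraries per time point, no search for a library far from the others of its group was possible.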

How the results depend on the processing

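Over 1602 comparisons of single genes and peaks with an alternative, 1316 kept their direction and side of the threshold, 224 lost the call, 61 gained one and 1 changed direction: Esrp1 from 12 h to 48 h, at 0.16 (not called), was -0.67 (called) with windows of 0 kb. With R1 or R2 as a replicate block, the gene sums called at 48 h relative to 0 h rose from 3 to 5 (Cdh2 and Twist1 added) and the 19 peaks called did not change in number. The deviations of same-numbered libraries from their time point means had correlations of -0.0362 (0 h and 12 h), -0.0496 (0 h and 48 h) and 0.078 (12 h and 48 h), so that the numbers do not show a pairing.

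Of the 4 peaks called at 12 h, DESeq2 called 0 and the GC offset 1 (peak 1 of Zeb2), which with peak 10 of Cdh1 made 2 calls, while the 4 libraries alone gave 8 and windows of 50 kb gave 8. Gene sums called at 12 h rose from 0 to 2 with the 4 libraries alone and to 1 with 50 kb. At 48 h relative to 0 h, DESeq2 called 8 of the 19 peaks, and the 3 gene sums became 1 with the 4 libraries alone and 6 with the GC offset. From 12 h to 48 h, DESeq2 called 9 peaks for 14, and the 4 libraries alone 3 gene sums for 6. The epithelial minus mesenchymal difference at 48 h moved from -1.05 to -0.58 with windows of 50 kb. Leaving out 1 library gave 0 to 8 peaks and 0 to 2 gene sums at 12 h, 1 to 25 peaks and 0 to 8 gene sums at 48 h, 3 to 24 peaks and 0 to 9 gene sums from 12 h to 48 h, and a difference of -1.46 to -0.64 at 48 h. The alternatives for the other EMT gene lists and the miR-200 peaks were added after seeing the data. Counts over those lists take Mir200a, Mir200b and Mir429, which share their peaks, as separate gene sums. Of those lists, 17 gene sums were called at 48 h, 27 with the GC offset, and 0 to 36 with 1 library left out; with TMM factors Esrp1 was among those not called. With 50 kb, Epcam's change was -0.22 (adjusted p = 0.165). The cause was not tested, beyond the smaller number of libraries in the fits that leave some out.

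Depth limits the small peaks: peak 2 of Zeb1 and peak 2 of Zeb2 held 2 reads at 0 h, and their intervals span more than 10-fold.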
